A study of Gorilla gorilla with 12 samples.

Results

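The contractile and actin-binding genes described here are CNN1, TAGLN, MYLK, CALD1, TPM1, TPM2, VCL, MYL9, ACTN1 and FLNA. Their members are all probe sets (groups of short DNA probes on the array) to which the probe annotation gives exactly 1 gene symbol, one of these 10. Such probe sets were found for 9 of the 10 genes, 15 probe sets of the 12625 on the array, and no value is given for FLNA, the actin cross-linker filamin A. All 15 passed the filter on dim signal, which left 7541 probe sets for testing.

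The study measured RNA of cultured gorilla fibroblasts, the collagen-producing cells of connective tissue, on 12 expression arrays. Each line carries the sex of its label and a number given in order of the labels, and equal numbers do not link a male to a female. Males 1 to 5 came from donors of 19, 26, 24, 18 and 3 years, and females 1 to 6 from donors of 19, 19, 35, 26, 30 and 2 years. These 11 cultures are called standard here, and their labels do not give the confluence at harvest. On 1 further array was male line 2 grown again and taken at 50% confluence, before the cells covered the dish. The labels call the donors normal and name no treatment. The 11 standard arrays are 11 animals, and a p-value below speaks of the spread from line to line, each line having been grown and hybridised only once.

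Values are linear intensities as deposited, none below 100, and where a probe set reads 100 its true signal may lie anywhere under that floor. The probes were designed on human sequence, so a base difference in gorilla RNA can lower an intensity, and no gene's level is read against another's. On each array 40.1% to 49.2% of the probe sets stood at the floor. Arrays correlated with each other at 0.922 to 0.961. RPS4Y1, a gene of the Y chromosome, measured 2662 to 4363 in the 5 male lines and 100 to 115 in 5 females, but 2595 in the line labelled female 3. The line labelled female 3 therefore goes against its label, and results that rest on it are given with and without it. Of the 10 measured fibroblast markers none stood at the floor on all 12 arrays, and their summed intensity was 74163 to 132486 on the standard arrays. RGS5 of pericytes, VWF of endothelium, KRT5 and KRT14 of epithelium, PTPRC of leukocytes, and MYF5 and MYH3 of skeletal muscle stood at the floor on all 12 arrays. Other genes of the same lists gave signal on the standard arrays: CSPG4 144 to 1090, KRT8 882 to 1662, KRT7 100 to 1217, CD68 420 to 1080, CD14 100 to 1673, TNNT1 1130 to 2518 and ACTC1 181 to 18139.

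Cells contract when filaments of myosin II pull on filaments of actin. Myosin is switched on by phosphorylation of its regulatory light chain, for which MYL9 is one of the genes, and MYLK is the calmodulin-activated kinase that adds this phosphate. Tropomyosin (TPM1, TPM2) lies along the actin filament and sets which proteins reach it, while calponin (CNN1) and caldesmon (CALD1) bind the filament and restrain the myosin ATPase. Transgelin (TAGLN) is a small actin-binding relative of calponin. Alpha-actinin 1 (ACTN1) ties actin filaments into bundles, and vinculin (VCL) couples them to integrin adhesions. In fibroblasts these proteins build the stress fibres, and several of them are known as markers of smooth muscle and of the contractile fibroblast called the myofibroblast, whose defining actin is ACTA2.

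MYL9 (39145_at) measured 3247, 13747, 4257, 5407 and 8829 in males 1 to 5. The females ran from 4237 in female 5 through a median of 8369.5 to 13714 in female 4. The sexes overlapped over nearly their whole range, and the brightest line was 4.23 times the dimmest. MYLK (32847_at) measured 110, 504, 259, 259 and 476 in males 1 to 5, and in females 100 to 493 with a median of 428. Only female 4 was at the floor for this kinase among the standard arrays, although the same line was among the brightest for MYL9.

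CNN1 (34203_at) measured 261, 430, 100, 182 and 440 in males 1 to 5. The females ran from 100 in the line labelled female 3 to 1156 in female 6, with a median of 133. CNN1 had a standard deviation of 1.15 between the 11 lines on the log2 scale, higher than that of 99.2% of all tested probe sets. It was at the floor in male 3 and in the line labelled female 3, so the spread is a lower limit.

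CALD1 was measured by 2 probe sets. The first (41738_at) had 625, 1822, 718, 1149 and 3668 in males 1 to 5, and 1080 to 3063 with a median of 1701.5 in females. The second (41739_s_at, an ending that marks probes shared by several transcripts) had 783, 2487, 638, 1493 and 2981 in males 1 to 5, and 990 to 4755 with a median of 2002.5 in females. Both were highest in the lines of the youngest donors, male 5 and female 6, and lowest in males 1 and 3. Their standard deviations of 0.79 and 0.88 on the log2 scale lay above those of 94.7% and 97.1% of tested probe sets.

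TAGLN (36931_at) was more even between lines. It measured 21219, 26479, 11585, 12957 and 17239 in males 1 to 5, and 10414 to 22174 with a median of 15764 in females. The brightest line had 2.54 times the intensity of the dimmest, and the standard deviation of 0.34 on the log2 scale exceeded that of only 29.9% of tested probe sets.

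TPM1 had 3 probe sets. The brightest by mean (36790_at) measured 10915, 12850, 10570, 10867 and 15119 in males 1 to 5, and 7161 to 14742 with a median of 13022 in females. The other two spread further, with 2734 to 12537 for 36791_g_at and 3232 to 17999 for 36792_at over the 11 lines. The line labelled female 3 was the lowest for 36790_at and 36791_g_at, and male 4 was the lowest for 36792_at.

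TPM2 also had 3 probe sets, of which 2 gave clear signal. The brighter (32313_at) measured 13251, 15435, 3397, 6449 and 10989 in males 1 to 5, and 7888 to 16545 with a median of 9456.5 in females. Male 3 was the lowest line here and in 32314_g_at, where the 11 lines ran from 3490 to 14364. The third probe set (32312_at) was dim, with a highest value of 220 and 4 of 11 lines at the floor. TPM1 and TPM2 are close relatives, and how far their probe sets share signal was not tested.

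ACTN1 was read by 2 probe sets. Of these, 39330_s_at measured 7485, 7446, 3935, 5367 and 5702 in males 1 to 5, and 4204 to 9118 with a median of 5316 in females. Its standard deviation of 0.40 on the log2 scale exceeded that of 48.7% of tested probe sets. For 39329_at the 11 lines lay between 2387 and 4765, with a standard deviation of 0.30 on the log2 scale that was the smallest of the 15 and exceeded that of 20.8% of tested probe sets. VCL (36601_at) measured 2825, 2523, 3068, 2619 and 7739 in males 1 to 5, and 2481 to 7223 with a median of 4068 in females. For VCL, 9 lines lay between 2481 and 5101 and the 2 lines of the youngest donors stood above them.

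Across all 15 probe sets the median standard deviation between lines was 0.61 on the log2 scale, beside 0.41 over all tested probe sets. In bulk RNA of a culture, fewer cells of a contractile kind and less RNA per cell cannot be told apart.

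**Figure D1:**
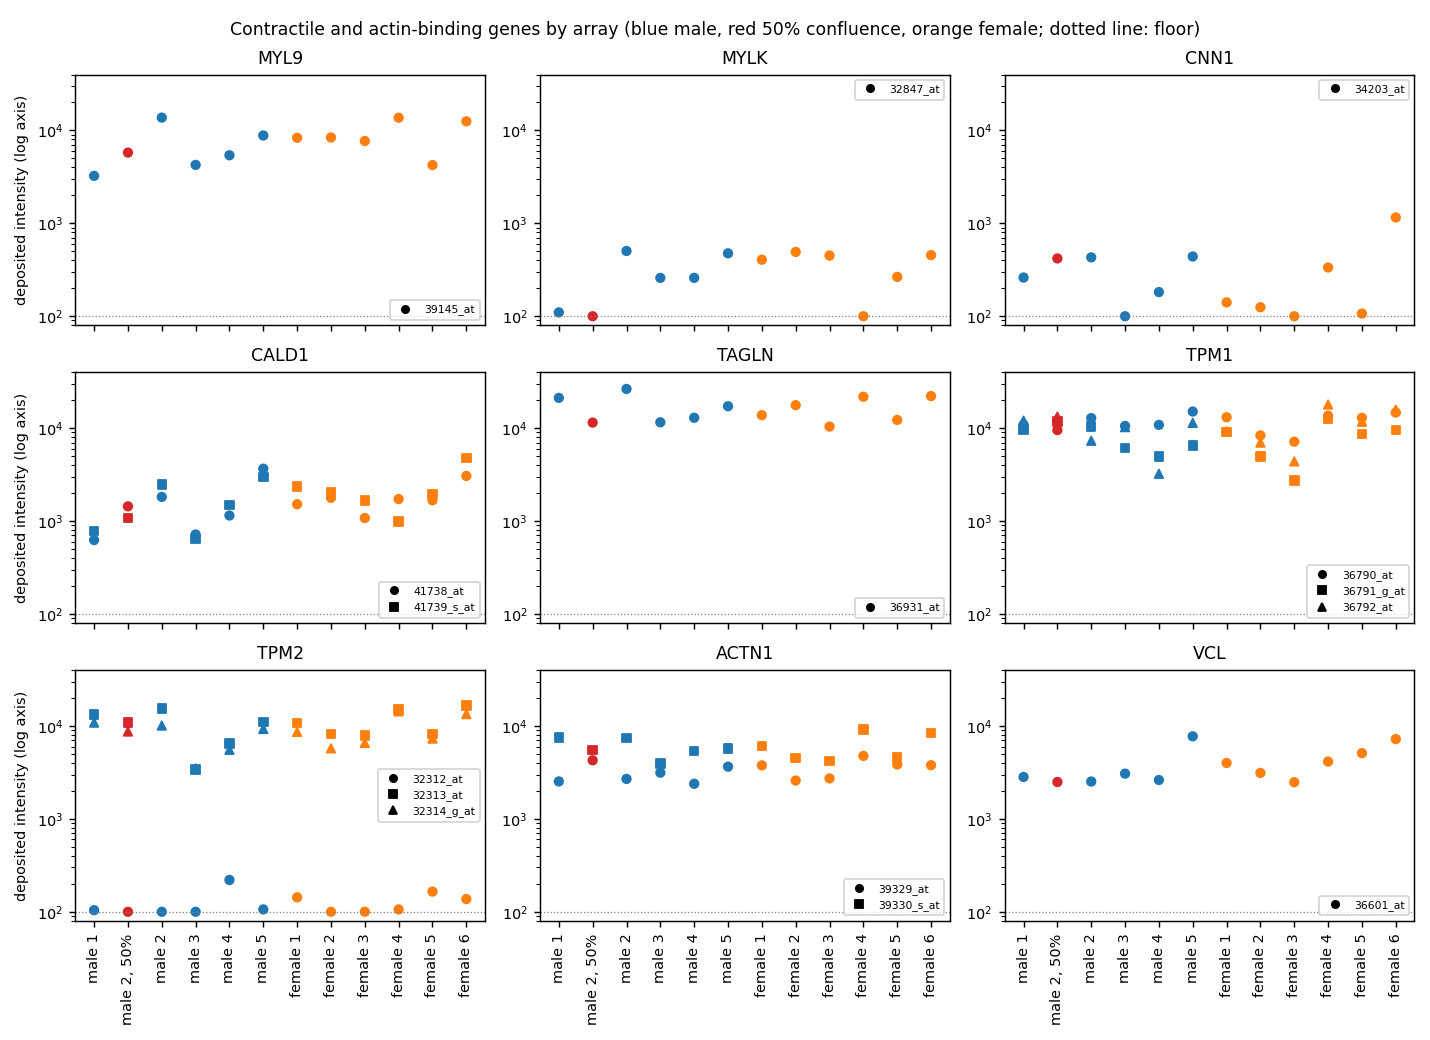
Deposited intensity (log axis) of every probe set of the 9 genes on the 12 arrays; 1 point is 1 array, the marker shape is the probe set, and the dotted line is the floor of 100. VCL stands highest in male 5 (7739) and female 6 (7223), and MYLK is at the floor in female 4 and at 50% confluence.

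Ranked by 1 probe set a gene, the lines kept a similar order over many of the 9 genes. Female 6, from the donor of 2 years, was among the 3 brightest lines for 8 of the 9 genes, male 2 for 6, and male 5 and female 4 for 5 each. Male 3, from a donor of 24 years, was among the 3 dimmest for 7 of 9, and the line labelled female 3 for 6 of 9. The mean of the 9 standardised log2 values was 1.38 in female 6, 0.73 in male 5 and 0.59 in male 2, against -1.05 in male 3 and -0.69 in the line labelled female 3. The order did not hold for every gene: female 4 was the brightest line for ACTN1 but ranked 11 of 11 for MYLK and 9 for CALD1. Male 1 ranked 3 for ACTN1 and 4 for TAGLN, but 11 for MYL9, 10 for MYLK and 10 for CALD1.

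To see which genes varied together between lines, normalized log2 values were correlated over the 11 standard arrays for the 36 pairs of members and for each member with ACTA2, 45 pairs in all. The coefficient was positive in 41 of 45 pairs, with a median of 0.503. The permutation p of Pearson's r, Benjamini-Hochberg adjusted over the 45 pairs, was under 0.05 in 11 pairs, and that of Spearman's rho in 14. The member pairs alone had a median r of 0.467 and 32 of 36 were positive. Over all 6256953 pairs of 3538 genes the median r was 0.0021 and 50.2% were positive. The weakest of the 11 called pairs had r = 0.697, a value reached by 1.57% of all pairs of genes.

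The called pairs joined CNN1, TAGLN, TPM2 and ACTN1 with each other and with ACTA2, and separately TPM1 with VCL. TPM2 and ACTN1 correlated at r = 0.836 (permutation p = 0.00018, adjusted p = 0.00427) and rho = 0.909 (permutation p = 0.00026, adjusted p = 0.00585). Without the 2 lines farthest from the median of TPM2, males 3 and 4, r was 0.966. The 9 adult lines alone gave r = 0.809 (exact permutation p = 0.002, adjusted p = 0.03). With the second brightest probe set of both genes r was 0.495 and the call was lost (adjusted permutation p = 0.226). TPM2 and ACTA2 correlated at r = 0.848 (permutation p = 0.00019, adjusted p = 0.00427) and rho = 0.873 (permutation p = 0.00099, adjusted p = 0.00891), and at r = 0.798 without the same 2 lines. This pair stayed called in all 17 alternative settings, among them the 9 adults (r = 0.841, exact permutation p = 0.00153, adjusted p = 0.03).

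CNN1 and ACTN1 gave r = 0.857 (permutation p = 0.00076, adjusted p = 0.0114) and rho = 0.879 (permutation p = 0.00088, adjusted p = 0.00891). In adults r was 0.927 (exact permutation p = 0.000248, adjusted p = 0.0112). With the other ACTN1 probe set, 39329_at, in place of the brighter one, this r was 0.343 (adjusted permutation p = 0.388), so the pair rests on which ACTN1 probe set is read, and median scaling gave r = 0.747 (adjusted permutation p = 0.0565). TAGLN and ACTA2 gave r = 0.867 (permutation p = 0.00132, adjusted p = 0.0148), rho = 0.843 (permutation p = 0.00191, adjusted p = 0.0118) and, in adults, r = 0.88 (exact permutation p = 0.00289, adjusted p = 0.0325). Its call was lost with median scaling (r = 0.787, adjusted permutation p = 0.0565). CNN1 and ACTA2 gave r = 0.819 (permutation p = 0.00202, adjusted p = 0.0151) and rho = 0.902 (permutation p = 0.00024, adjusted p = 0.00585), with r = 0.773 in adults (exact permutation p = 0.0188, adjusted p = 0.111). The remaining called pairs of this group, CNN1 with TAGLN, CNN1 with TPM2, TAGLN with TPM2, TAGLN with ACTN1 and ACTN1 with ACTA2, had r from 0.697 to 0.785 and adjusted permutation p from 0.0307 to 0.0462. Each of these 5 lost its call in 6 to 13 of the 17 alternatives.

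TPM1 and VCL gave r = 0.823 (permutation p = 0.00174, adjusted p = 0.0151) and rho = 0.836 (permutation p = 0.0021, adjusted p = 0.0118), with r = 0.785 without the 2 lines farthest from the median of TPM1. The call was lost in 4 of the 17 alternatives: in adults (r = 0.767, exact permutation p = 0.0151, adjusted p = 0.111), in the deposited values (r = 0.715, adjusted permutation p = 0.0526), with median scaling (r = 0.728, adjusted permutation p = 0.0565) and with the second brightest TPM1 probe set (r = 0.663, adjusted permutation p = 0.094). VCL had no called pair with the CNN1 group. Its r with CNN1 was 0.531 over 11 lines (adjusted permutation p = 0.209) and -0.235 in the 9 adults, so the positive value rested on the 2 lines of the youngest donors.

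MYLK had the lowest coefficients with the CNN1 group. Its r was -0.013 with CNN1, -0.0084 with TPM2, -0.0075 with TAGLN, -0.26 with ACTN1 and 0.043 with ACTA2. These values rested on female 4, at the floor, and male 1. Without these 2 lines, the farthest from the median of MYLK, r was 0.424 with CNN1, 0.62 with TPM2, 0.582 with TAGLN, 0.367 with ACTN1, 0.727 with ACTA2 and 0.865 with MYL9. With CALD1, VCL and TPM1 the same removal lowered r, to 0.554, 0.124 and -0.175. No p was computed for the r without these 2 lines, which were chosen on MYLK itself. In the 9 adults, which include both lines, r of MYLK was -0.445 with CNN1, -0.18 with TPM2 and -0.175 with TAGLN. It was -0.462 with ACTN1 and -0.217 with ACTA2 in the same adults. The highest r of MYLK over the 11 lines, 0.696 with CALD1, had an adjusted permutation p of 0.0684. MYL9, the substrate of MYLK, had r = 0.429 with it and 0.685 with ACTA2 (adjusted permutation p of 0.307 and 0.0769). Leaving out the line labelled female 3 gave 7 called pairs in place of 11. The lost ones were CNN1 with TAGLN, CNN1 with TPM2, TAGLN with ACTN1 and ACTN1 with ACTA2.

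**Figure D2:**
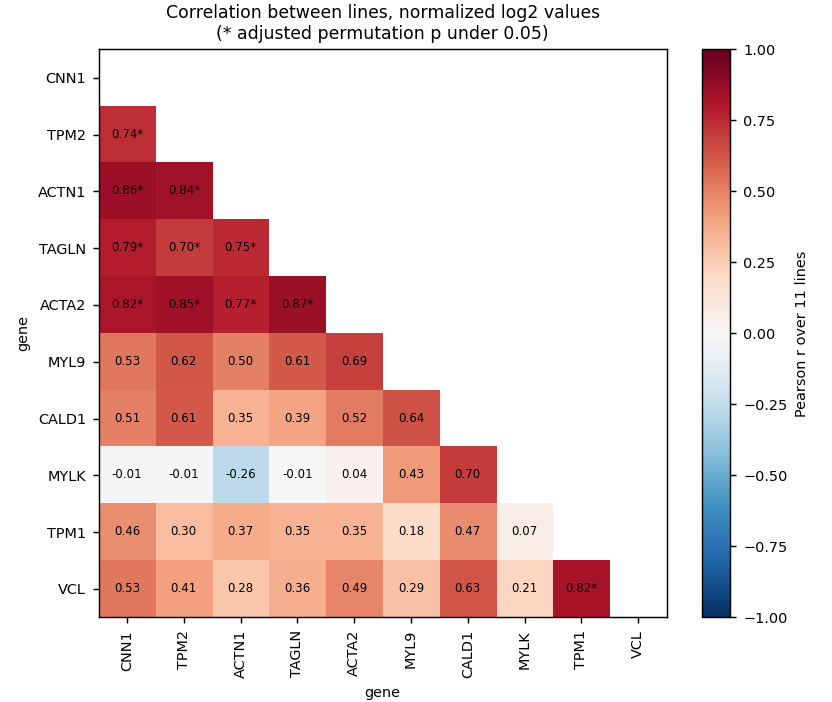
Pearson r between lines (n = 11) for each pair of genes, from normalized log2 values with 1 probe set a gene; colour is r and a star marks an adjusted permutation p under 0.05. CNN1, TPM2, ACTN1, TAGLN and ACTA2 form a block with r of 0.697 to 0.867, TPM1 pairs with VCL, and the values of MYLK against that block lie between -0.26 and 0.043, which rests on female 4 and male 1.

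Probe sets of the same gene did not always vary in step. The ratio of 2 probe sets has no meaning as a level, and what is read here is how it differed between arrays. For TPM1 the ratio of 36792_at to 36790_at ran from 0.297 in male 4 to 1.32 in female 4, a spread of 4.43-fold over the 11 lines. For CALD1 the ratio of 41738_at to 41739_s_at ran from 0.644 to 1.74, again highest in female 4, a spread of 2.71-fold. The ratio of the ACTN1 probe sets (39329_at to 39330_s_at) spread 2.49-fold, from 0.338 in male 1 to 0.841 in female 5. That of the brighter TPM2 probe sets spread only 1.57-fold. Which transcripts each probe set reads was not tested.

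**Figure D3:**
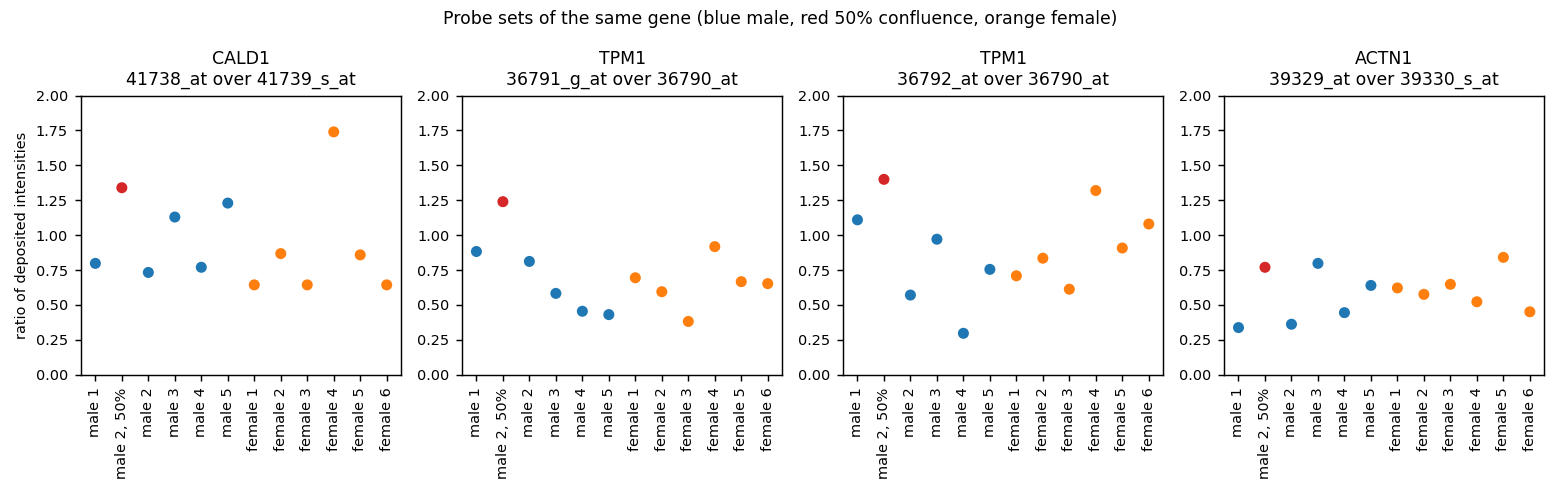
Ratio of deposited intensities of 2 probe sets of the same gene on each of the 12 arrays. The array at 50% confluence lies above all 11 standard arrays for both TPM1 ratios (1.24 and 1.40) and above male 2 for CALD1 and ACTN1.

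Of 3538 genes with no value at the floor on the standard arrays, those whose pattern over the 11 lines was most like the mean of the 9 standardised genes were CLSTN1 (r = 0.972), ARHGEF6 (r = 0.948), TRPM2 (r = 0.912), GPC1 (r = 0.906), ENDOD1 (r = 0.896), RNF115 (r = 0.893), NUAK1 (r = 0.891), PDHB (r = 0.882), ZNF428 (r = 0.877) and ADCY9 (r = 0.871). CLSTN1, which encodes the membrane protein calsyntenin 1, lay between 1594 and 3317 and gave r = 0.941 in the 9 adults alone. ARHGEF6, an exchange factor for the small GTPases Rac and Cdc42, lay between 128 and 560. The most opposite patterns were those of RER1 (r = -0.967), MT1B (r = -0.90), TRIM27 (r = -0.897), SLC29A1 (r = -0.862) and MAP4K4 (r = -0.858). RER1, which returns proteins to the endoplasmic reticulum, lay between 1126 and 2563. The probe set of MT1B belongs to a family of near-identical metallothioneins and may read several of them. These genes are the extremes of a search, and their coefficients are a description of these lines.

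For sex, none of the 15 probe sets passed the test. The male minus female differences ran from -0.55 for CALD1 41739_s_at to 0.24 for CNN1 on the log2 scale. Their median was -0.28, beside -0.0088 over all tested probe sets, and 13 of 15 were negative. The share of negative differences over all tested probe sets was not counted. Members share lines and, within a gene, transcripts, so the 13 are not independent results. In limma the adjusted p-values of the 15 were 0.890 to 0.996. Over all 7541 probe sets limma called none between the sexes (0% at an adjusted p under 0.05), and 397 stood at an unadjusted p under 0.05, which is 5.26%, 202 of them higher and 195 lower in males. None of the 15 members was among the 397.

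MYL9 averaged 7097 ± 4271 in males and 9156 ± 3458 in females (SD, n = 5 and n = 6), a difference of -0.51 ± 0.36 on the log2 scale (SE, limma adjusted p = 0.890). ACTN1 39329_at averaged 2879 ± 514 in males and 3579 ± 808 in females, a difference of -0.28 ± 0.20 (SE, limma adjusted p = 0.890, the same n). The MYL9 difference was smaller than the SD of either sex, and that of ACTN1 39329_at was larger than the SD of the males and smaller than that of the females. Without the line labelled female 3, MYL9 differed by -0.53 and ACTN1 39329_at by -0.36, and again no member reached an unadjusted p under 0.05. Of the 12 proliferation markers, 4 (MCM3, MCM4, RRM2 and TYMS) had an unadjusted limma p under 0.05, beside 5.26% of all tested probe sets. All 4 were higher in males, and none passed the adjusted threshold (limma adjusted p of 0.804 to 0.890). The summed intensity of the 12 was 5936 to 15255 in males and 4312 to 12063 in females. The line labelled female 3, with a sum of 4561, was counted as female, and no fit of these markers without it is given. The part of these markers in the values of the contractile genes was not tested.

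For donor age, a slope per 10 years was fitted over the 11 standard arrays with sex as a covariate. All 15 slopes were negative, so values were lower in lines of older donors, beside 50.5% of all tested probe sets. No member was called, and limma called 0% of the 7541 probe sets, of which 190 had a positive and 220 a negative slope at an unadjusted p under 0.05. The 15 adjusted p-values were 0.826 to 0.991, and the median slope was -0.24 on the log2 scale beside -0.0017 over all tested probe sets. At an unadjusted p under 0.05, 4 of 15 members had a negative slope and none a positive one, beside 2.92% of all tested probe sets with a negative slope at that level. The members share lines and, within a gene, transcripts, so these counts are not counts of independent results.

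The 4 were VCL, CNN1 and both probe sets of CALD1. VCL had a slope of -0.47 ± 0.13 per 10 years (SE, limma adjusted p = 0.826). CNN1 had -0.78 ± 0.24 (SE, limma adjusted p = 0.826). The CALD1 probe sets had -0.52 ± 0.17 and -0.53 ± 0.19 (SE, limma adjusted p = 0.850 for both). Without the line labelled female 3 the slopes were -0.45 for VCL, -0.78 for CNN1, and -0.52 and -0.61 for CALD1, and again 4 members stood at an unadjusted p under 0.05.

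These 4 slopes rested on the 2 donors under 10 years. VCL measured 5101, 3068 and 2481 at the highest, median and lowest of the 9 adult lines, while female 6 had 7223 and male 5 had 7739. The adult minus young difference of VCL was -1.29 ± 0.27 on the log2 scale (SE, limma adjusted p = 0.405). CNN1 measured 100 to 430 in adults with a median of 141, against 1156 in female 6 and 440 in male 5, a difference of -2.05 ± 0.56 (SE, limma adjusted p = 0.414). CALD1 41738_at measured 625 to 1822 in adults, against 3063 in female 6 and 3668 in male 5, a difference of -1.48 ± 0.37 (SE, limma adjusted p = 0.405). In 5 of the 15 probe sets, those of VCL, CNN1 and CALD1 and 36790_at of TPM1, both young lines stood above all 9 adults in the deposited values, beside 3.55% of all tested probe sets. After normalization the other 4 did so too, but for TPM1 36790_at the adult female 5 (log2 13.84) lay above female 6 (log2 13.83). With 2 young donors, none of these differences passed the adjusted threshold.

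Within the 9 adults no member reached an unadjusted p under 0.05 for age. Of the 15 slopes 12 were negative, with a median of -0.10 beside -0.0051 over all tested probe sets. VCL had -0.13 and CNN1 -0.08. Without the line labelled female 3, which has the highest age, 10 of the 14 clearly measured probe sets had a positive slope among the remaining 8 adults and 4 a negative one, with a median of 0.18. The direction among adults therefore depended on that line. The share of all tested probe sets in each direction was not counted for either of these adult fits. No member's slope was called as different between the sexes by limma's interaction term (lowest adjusted p = 0.999). That term called none of all tested probe sets, of which 282 had an unadjusted p under 0.05.

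Of other measures, some separated the young lines from the adults and others overlapped. The 3' to 5' ratio of the ACTB control probes, a measure of RNA integrity, was 0.865 to 1.19 in adults, against 0.84 in female 6 and 0.672 in male 5. That of GAPDH was 0.821 to 1.34 in adults, against 1.28 in female 6 and 1.30 in male 5. The summed intensity of the 9 skeletal or cardiac muscle markers was 2386 to 11172 in adults, against 16095 to 21125 in the young lines. Most of that sum in the young lines was ACTC1. It measured 181 to 7836 in adults, against 12772 in female 6 and 18139 in male 5. Only 1 of the 4 tested markers of the list, ACTC1, had both young lines above all adults. TNNT1 measured 2265 in female 6 and 1978 in male 5, inside its adult range of 1130 to 2518. MYF5 and MYH3 stood at the floor on all 12 arrays. The 6 smooth muscle or pericyte markers summed to 1258 to 2558 in adults, against 2264 to 2969 in the young lines, with RGS5 at the floor throughout. Of these 6, NOTCH3 measured 179 to 798 in adults, against 676 in female 6 and 625 in male 5, a slope of -0.55 ± 0.16 (SE, limma adjusted p = 0.826). The epithelial keratin KRT7 measured 100 to 662 in adults, against 1217 in female 6 and 953 in male 5, a slope of -0.95 ± 0.17 (SE, limma adjusted p = 0.295). The whole list of 7 epithelial markers summed to 1742 to 2899 in adults, against 2335 to 2646 in the young lines, with KRT5 and KRT14 at the floor. Their part in the slopes was not tested.

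**Figure D4:**
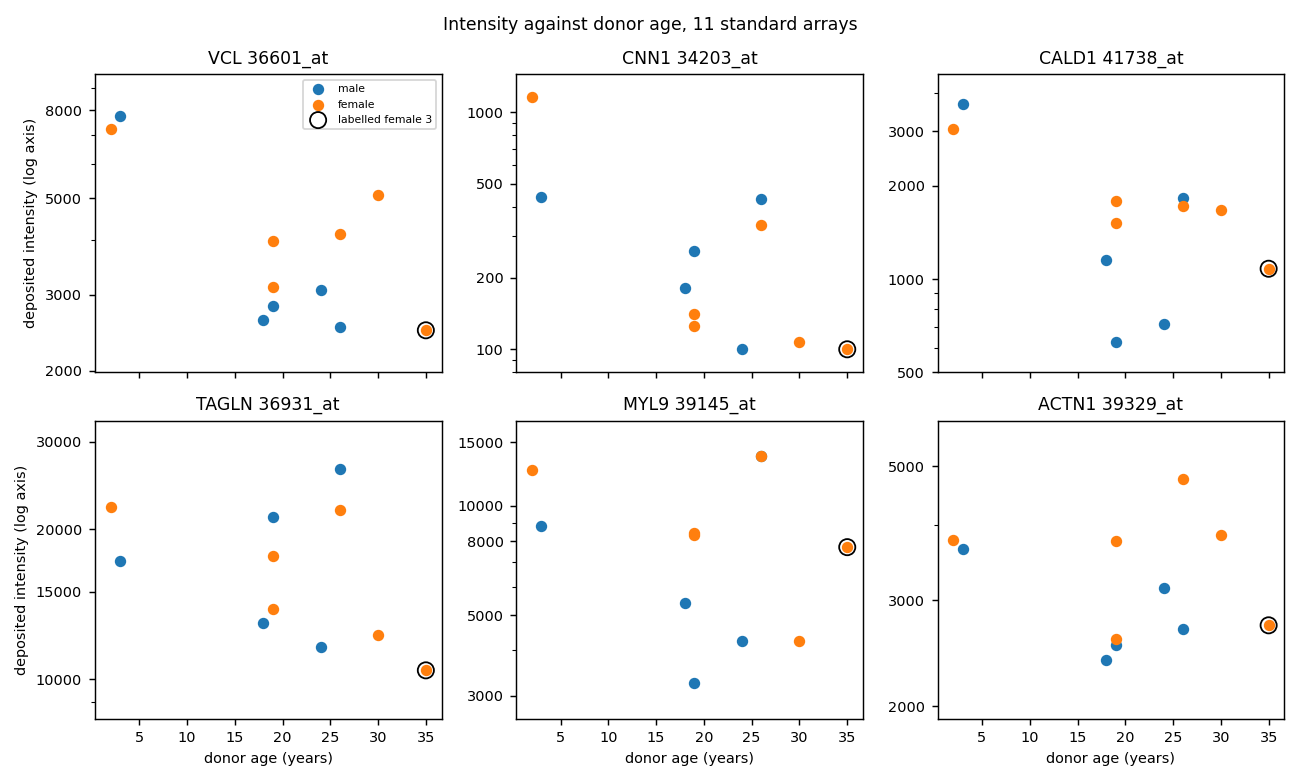
Deposited intensity (log axis) against donor age in years for 6 probe sets in the 11 standard lines, 1 point a line; the ring marks the line labelled female 3. VCL, CNN1 and CALD1 have both donors under 10 years above all adults, while TAGLN, MYL9 and ACTN1 do not.

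Other genes of the same machinery were read from lists of related genes, 1 probe set a gene. Among the 4 tested actin isoforms, the muscle actins ACTA2, ACTC1 and ACTA1 had negative slopes at an unadjusted p under 0.05 and the ubiquitous ACTB did not. ACTA1 was dim and stood at the floor in 8 of the standard lines, so the floor limits its slope. It measured 100 to 135 in adults, against 343 in female 6 and 188 in male 5. ACTA2 measured 885 to 15216 in adults, against 17158 in female 6 and 17653 in male 5, with a slope of -1.0 ± 0.31 per 10 years (SE, limma adjusted p = 0.826). ACTC1, the cardiac actin, had -1.34 ± 0.45 (limma adjusted p = 0.850), and ACTB -0.01 ± 0.094 (limma adjusted p = 0.991). None of these passed the adjusted threshold.

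Over all tested probe sets 50.5% had a negative slope, and 2.92% did so at an unadjusted p under 0.05. Of 15 other smooth muscle contractile genes 11 had a negative slope, and 3 did so at an unadjusted p under 0.05: ACTA2, already counted among the actins, the LIM protein CSRP1 (-0.36) and KCNMB1, a subunit of the calcium-activated potassium channel (-0.68). Of 16 partners at focal adhesions 14 were negative, with FERMT2 (-0.35), an activator of integrins, and the actin-bundling PALLD (-0.51) at an unadjusted p under 0.05. Of 13 genes of actin turnover 10 were negative, with the severing protein GSN at -0.38 and, in the other direction, profilin PFN1 at 0.28, both at an unadjusted p under 0.05. None of the 7 myosin II chains, the 5 paralogs of the members or the 8 regulators of contraction reached that level for age. For sex, 1 gene of these lists did, SVIL, an actin-binding supervillin (-0.68 ± 0.26, limma adjusted p = 0.890).

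At 50% confluence 1 culture of male line 2 was set against 1 standard culture of the same line, so these differences have no test. Of the 15 probe sets 10 were lower at 50% confluence, beside 46.3% of all tested probe sets. A 2-fold or larger drop was seen for 3 of 15 (MYLK, CALD1 41739_s_at and MYL9), beside 7.24% of all tested probe sets. The standard culture of male 2 was the brightest of the 11 lines for MYLK, MYL9 and TAGLN and ranked 3 for CALD1 41739_s_at. These drops therefore start near the top of the range between lines, and the part of that starting level was not tested. None of the 15 was both 2-fold lower and below the range of the 11 standard lines, beside 1.50% of all tested probe sets.

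MYLK measured 100, the floor, at 50% confluence and 504 in the standard culture, which makes it at least 4.91-fold lower after normalization. The same floor value was found in the standard culture of female 4. MYL9 measured 5780 at 50% confluence and 13747 in the standard culture, 2.14-fold lower after normalization, and 4 standard lines were dimmer than 5780. CALD1 41739_s_at measured 1077 at 50% confluence and 2487 in the standard culture, 2.41-fold lower after normalization. The other CALD1 probe set measured 1442 and 1822, a difference of -0.41 on the log2 scale, so the caldesmon probe sets differed in size. TAGLN measured 11497 at 50% confluence and 26479 in the standard culture, a difference of -0.64 after normalization and of -1.20 in the deposited values.

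Of the members only TPM1 36792_at was 2-fold higher. It measured 13324 at 50% confluence and 7331 in the standard culture, 2.49-fold higher after normalization. The shares of all tested probe sets that were 2-fold higher or above the standard lines were not counted. TPM1 36791_g_at differed by 0.50 and TPM1 36790_at by -0.17 on the log2 scale. Read within the array, the ratio of 36792_at to 36790_at was 1.40 at 50% confluence and 0.571 in the standard culture, and that of 36791_g_at to 36790_at was 1.24 and 0.812. Both ratios at 50% confluence lay above those of all 11 standard lines. ACTN1 likewise split by probe set, with 0.60 for 39329_at and -0.52 for 39330_s_at, and its ratio was 0.77 at 50% confluence and 0.362 in the standard culture. CNN1 measured 419 and 430, VCL 2494 and 2523, and TPM2 32313_at 10922 and 15435, at 50% confluence and in the standard culture, with normalized differences of 0.06, -0.10 and -0.10. After normalization VCL lay just below and TPM1 36791_g_at and 36792_at above all 11 standard lines, while the deposited values of all 3 were inside the standard range.

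The scaling of the arrays matters here. Scaled to equal medians, the median difference of all tested probe sets was 0.43 on the log2 scale, and 5 of 15 members were lower and 1, MYLK, 2-fold lower. The shares of all tested probe sets that were lower under this scaling were not counted, so these member counts have no share to be read against. The differences were then -1.84 for MYLK, -0.75 for MYL9, -0.71 for CALD1 41739_s_at, -0.71 for TAGLN and 1.36 for TPM1 36792_at, while CALD1 41738_at (0.16), VCL (0.48), ACTN1 39330_s_at (0.07), TPM1 36790_at (0.066) and TPM2 32314_g_at (0.28) turned from negative to positive. Median intensity was 105 at 50% confluence and 148 in the standard culture, and 49.2% against 40.1% of the probe sets stood at the floor. The 3' to 5' ratio was 0.857 at 50% confluence and 0.865 in the standard culture for ACTB, and 0.99 and 1.30 for GAPDH. The summed intensity of the 12 proliferation markers was 11400 at 50% confluence and 5936 in the standard culture, within the 4312 to 15255 of the standard lines. The part of these measures in the differences was not tested.

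Of the related genes, RHOB, a small GTPase of stress fibre control, measured 430 at 50% confluence and 2203 in the standard culture, 5.04-fold lower after normalization and below all 11 standard lines. That standard culture was the brightest of the 11 lines for RHOB. RHOB was an exception in its list: of the 8 tested regulators of contraction only 2 were lower, beside 46.3% of all tested probe sets. Another of the 8 was 2-fold higher, and their median difference was 0.37 on the log2 scale. Among smooth muscle contractile genes the actin nucleator LMOD1 was 3.27-fold, the small heat shock protein CRYAB 3.50-fold, KCNMB1 2.24-fold and CSRP2 2.16-fold lower, and the LIM protein FHL2 was 2.23-fold higher, all inside the standard range. The myosin heavy chain MYH9 measured 10573 at 50% confluence and 6120 in the standard culture, a difference of 0.94 on the log2 scale. After normalization MYH9 lay above all 11 standard lines, but its deposited value was inside their 5087 to 13441. LASP1 of the focal adhesion list (-0.78) and CFL1 of the actin turnover list (-0.34) lay below all 11 standard lines, neither of them 2-fold lower.

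**Figure D5:**
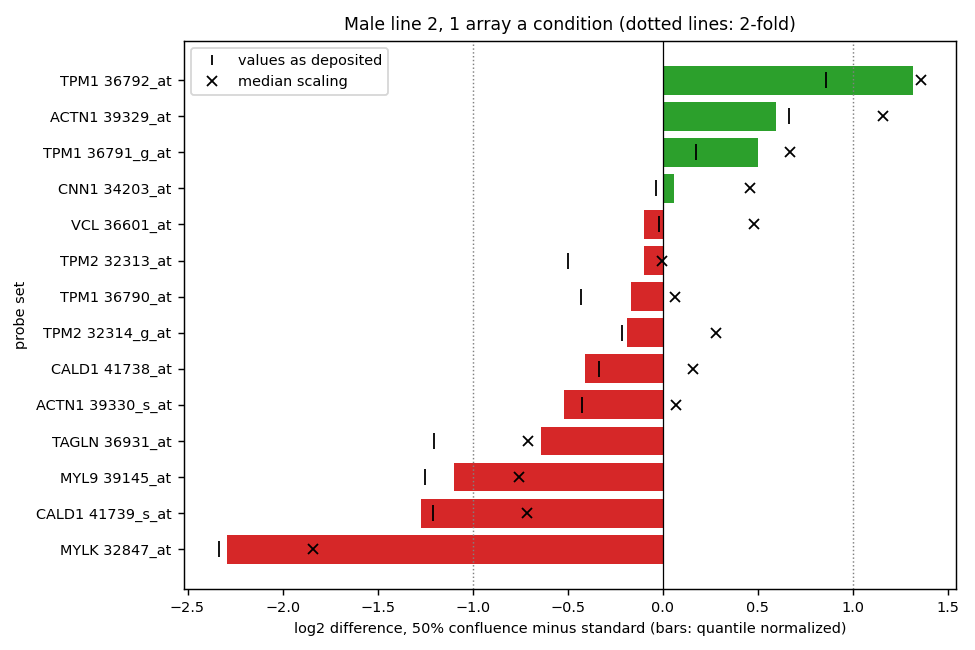
Difference between the 50% confluence culture and the standard culture of male line 2 (log2, 1 array each) for 14 probe sets, without the dim TPM2 32312_at; bars are quantile normalized, ticks are the deposited values, crosses are median scaling, and the dotted lines mark 2-fold. MYLK, whose bar is a lower limit of the drop, stays past 2-fold in all 3, and TPM1 36792_at stays positive in all 3.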

How the data were processed

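Total RNA of cultured fibroblasts was measured on 12 single-colour oligonucleotide arrays, 1 a culture. The authors deposited linear intensities, 1 whole number a probe set and array, with a floor of 100. For the summarising software, scaling and any earlier normalization the sources used here give no statement, and the highest deposited intensity of an array was 18027 to 43135. Precision is limited by the number of arrays.

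Intensities were taken to log2 and quantile normalized over the 12 arrays. Probe sets with a mean over the standard arrays above the 40th percentile were tested (7541), without the 67 control probe sets. Sex, age slope and their interaction were fitted with lmFit and eBayes of limma 3.58.1 (R 4.3.3), Benjamini-Hochberg adjusted over all tested probe sets at 0.05. Correlations used each gene's brightest tested probe set by mean and 100000 two-sided permutations (exact for 9 lines; scipy 1.17.1). All probe sets of the 10 genes are reported. From the related lists, ACTA2, genes past an unadjusted p of 0.05, genes past 2-fold and outside the standard range at 50% confluence, and up to 2 others with the highest mean are named. LMOD1, CSRP2 and FHL2 were named after their values were seen. Named as like or unlike are the 10 highest and 5 lowest correlations. The members, lists and tests were chosen with earlier results of these data known.

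Gene symbols come from the probe annotation. The gorilla gene table held all 10, and no genome or sequence was used. Alternatives covered scaling, floor, filter, covariates, donors and single lines. Filamin A was not analysed here.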

Additional observations from a re-analysis of the deposited data

Results flagged for a closer look

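Each probe set's highest and lowest line was compared with the nearest other line within the 5 males and within the 6 females, 30 groups in all, and chance flags about 1 in 20. In both cases 1 male stood apart. VCL (36601_at) measured 7739 in male 5, the donor of 3 years, against 2523 to 3068 in the other males, a gap of 0.861 of the whole range on the log2 scale. Female 6, the other young donor, was not apart from the females by this measure. The dim TPM2 probe set 32312_at measured 220 in male 4, against 100 to 106 in the other males, a gap of 0.881 of the range, at values near the floor.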

How the results depend on the processing

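The number of probe sets called between the sexes was 2 with median scaling and 0 to 1 when single lines were left out (1 without the line labelled female 3). No count of members at an unadjusted p under 0.05 for sex exceeded 1, reached with the 50% confluence array in place of male 2, and the count was 0 to 1 leaving out lines. For age, limma called 0 probe sets in all settings, and 2 to 8 members stood at an unadjusted p under 0.05 when lines were left out. That count was 8 without male 2, 2 without female 6 or male 5, 0 in adults only, and 0 in adults without the line labelled female 3, an alternative chosen after seeing the data. Called pairs numbered 6 to 15 leaving out lines, 4 with median scaling and 4 in adults only. They were 6 without female 5 or female 6, 7 without male 2 or the line labelled female 3, and 15 without male 1. At 50% confluence median scaling left 1 member 2-fold lower and 5 lower, with a median of all tested probe sets of 0.43 and no share of all tested probe sets counted.

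Age slopes turned positive in adults only for MYLK (0.20), MYL9 (0.0021) and ACTN1 39329_at (0.015). With the line labelled female 3 also left out of the adults, positive slopes were found for CNN1 (0.31), VCL (0.26), TAGLN (0.10), CALD1 41738_at (0.27), TPM2 32314_g_at (0.10), TPM1 36790_at (0.31), 36791_g_at (0.48) and 36792_at (0.75), and ACTN1 39329_at (0.31) and 39330_s_at (6.03e-05). The slope of TPM1 36791_g_at ran from -0.29 to 0.051 when lines were left out, positive without the line labelled female 3. The cause of these changes was not tested. No paired analysis was possible because the running numbers of lines pair no animals. A value at the floor limits CNN1 and MYLK.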
